A study of Mus musculus with 16 samples.

Results

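The comparison described here is the effect of ertugliflozin on left ventricular RNA averaged over 2 diets in mice. It uses all 16 of the 16 RNA-seq libraries of the series and sets 8 libraries from drug-fed mice against 8 from mice without drug. The difference is the mean of the 2 ertugliflozin groups minus the mean of the 2 untreated groups, and it was computed for every expressed gene, 15841 of the 53764 in the count table. All groups were male C57BL/6J mice, 8 weeks old at the start and then fed for 4 months. The CD groups ate a control diet low in fat and the HFHS groups a diet high in fat and sucrose. On each diet 1 group was untreated and 1 received ertugliflozin mixed into the food at 0.5 mg per g. The 4 groups have 4 libraries each, from animals that the submitters picked as representative of larger groups, so the spread below is that of chosen animals. P-values measure only the spread between these libraries. The study's title places the series in work on remodelling and energetics of the heart with and without diabetes.

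Ertugliflozin inhibits SGLT2, the sodium-glucose cotransporter encoded by Slc5a2 that takes glucose back from the filtrate in the kidney tubule. Blocking it sends glucose into the urine, lowers blood glucose and insulin, and moves the body towards burning fatty acids and ketone bodies. The heart makes most of its ATP in mitochondria, mainly from fatty acids, and the nuclear receptor PPAR-alpha switches on genes of fatty acid uptake and oxidation when fatty acid supply is high.

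The libraries held 14637669 to 21452212 counts, and the 10 most abundant genes took 11.4% to 13.1% of them. Myh6, the adult cardiomyocyte myosin heavy chain, had 439171 to 709103 counts per library. The table held 0 transcripts of the mitochondrial genome. Some untreated CD libraries stood apart in markers of tissue next to the ventricle. Levels are given in CPM, counts scaled to a common library total. Of 16 listed markers of heart valve and cartilage 12 were tested. The summed level of all 16 was 311 CPM in replicate 2 and 280 CPM in replicate 3 of the untreated CD group. It was 82.7 and 123 CPM in the group's other 2 libraries and 42.9 to 117 CPM in the other 3 groups. The summed atrial markers reached 1520 CPM in CD untreated replicate 1 and 713 CPM in replicate 2, and were 428 to 579 CPM in all others.

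No gene passed an adjusted p of 0.05 for ertugliflozin over both diets by edgeR's quasi-likelihood test, 0% of 15841 genes, and the smallest adjusted p was 0.795. At an unadjusted p under 0.05 there were 882 genes, 5.57% of those tested, of which 493 (3.11%) were higher with drug and 389 (2.46%) lower. DESeq2 called 4 genes in the same libraries (Hsdl2, Chrna2 and Fgf16 higher, Oas2 lower, smallest adjusted p 0.0149), while limma-voom with library weights called 0, with 1603 genes at an unadjusted p under 0.05. Leaving out HFHS untreated replicate 1 gave 1 call, Atpif1, the inhibitor of the mitochondrial ATP synthase. The same edgeR fit called 1837 genes (11.6%) for diet, with 4205 genes (26.5%) at an unadjusted p under 0.05. The plot of unadjusted p-values shows how evenly those of the drug were spread.

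**Figure D1:**
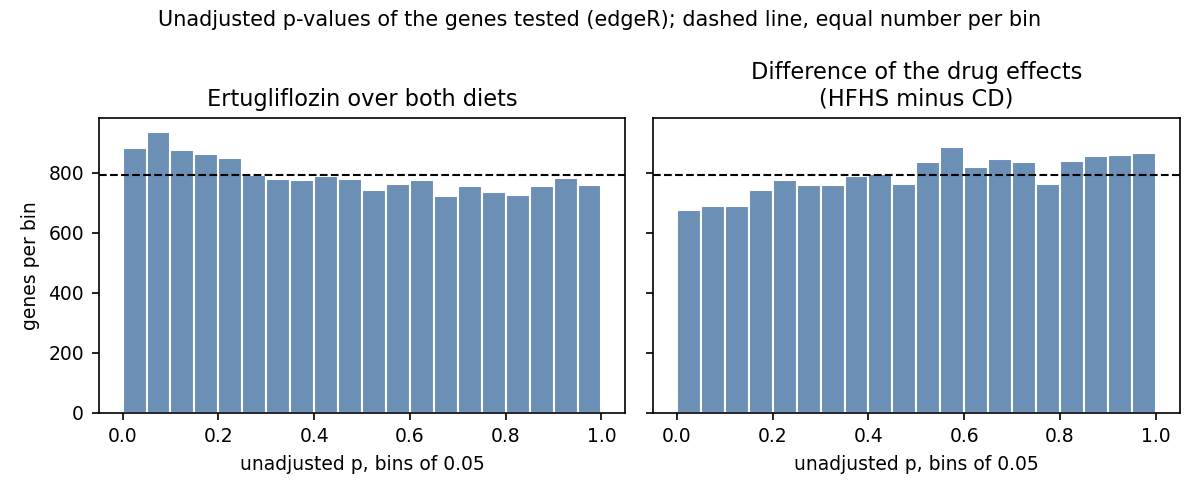
Number of genes (vertical axis) in each bin of unadjusted p (horizontal axis, no unit) for ertugliflozin over both diets (left) and for the difference of its effects between the diets (right), from edgeR on 16 libraries. The first bin holds 882 genes on the left and 676 on the right, and the dashed line is the number every bin would hold if p-values were evenly spread.

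The data set limits on the size of the effect averaged over both diets for most genes. They do not limit the effect on either diet alone, since opposite effects cancel in the average. For Iigp1, described below, the 95% interval ran from 0.04 to 0.41, while its log2 differences were 0.87 on CD and -0.42 on HFHS. The 95% interval of the log2 fold change lay within a 1.5-fold change in either direction for 13797 of 15841 genes (87.1%) and within a 2-fold change for 15440 (97.5%). Among the 9437 genes with a mean of at least 10 CPM, 98.4% had an interval within 1.5-fold and 93.4% within 1.25-fold. The median size of the drug effect was 0.05 on the log2 scale, below the median standard error of 0.07, and that of diet was 0.10. In 14210 genes with a mean of at least 1 CPM, drug took 6.53% of the variance between libraries, diet 17.4% and their interaction 7.92%, where each term would take 6.67% if all degrees of freedom shared equally.

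The drug effects on CD and on HFHS share no library and can be set side by side. Across all 15841 genes, which are not independent replicates, they had the same sign in 53.5% and their Spearman correlation was 0.0459. For the 1784 genes with a mean of at least 100 CPM, the same sign was seen in 63.6%, with a Spearman correlation of 0.343. The share of genes with the same sign was larger among abundant transcripts.

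Only 1 gene, 0.00631% of those tested, had all 8 drug libraries on one side of all 8 untreated ones: Gm6644, a gene model of unknown role. In 8 genes (0.0505%) the 4 drug libraries lay clear of the 4 untreated on CD and again, in the same direction, on HFHS. They were Tiprl, Gm6644, Prdm9, Etfdh and Hsdl2 (higher) and A730017L22Rik, Cd3eap and Dapk2 (lower). A further 2 genes (0.0126%) lay clear on both diets in opposite directions. These genes are named because few met the condition, after their values were seen. Whether these counts exceed the number that would meet it with no drug effect was not tested.

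The 20 genes of smallest p were named by rule. None of them passed the adjusted threshold, 10 were higher with drug and 10 lower, and their log2 differences ran from -0.65 to 0.69. Chrna2, a nicotinic acetylcholine receptor subunit, had the smallest p. Its levels on CD were 2.79, 3.49, 3.02 and 2.68 CPM untreated and 3.29, 3.80, 3.48 and 6.32 CPM with drug. On HFHS they were 8.70, 10.1, 10.2 and 9.26 CPM untreated and 15.6, 13.9, 16.4 and 13.9 CPM with drug. The groups overlapped on CD, where only replicate 4 of the drug group stood well above the untreated mice, and lay apart on HFHS. The log2 difference over both diets was 0.57 ± 0.11 (SE), with an adjusted p of 0.795 by edgeR and 0.0150 by DESeq2.

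Fgf16, a fibroblast growth factor made by cardiomyocytes (chrX:105764279-105774939, GRCm38), was clear of overlap on the other diet. On CD it measured 16.6, 15, 17.1 and 18.0 CPM untreated and 25.1, 20.2, 23.6 and 28 CPM with drug, with no overlap. The HFHS values were 22.7, 16.8, 23 and 24.6 CPM untreated and 28.1, 22.8, 25.6 and 26.2 CPM with drug, which overlapped. Its log2 difference was 0.39 ± 0.08, 0.54 ± 0.11 on CD and 0.24 ± 0.11 on HFHS, and the difference between the diets had an unadjusted p of 0.0776 by edgeR.

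Hsdl2, a hydroxysteroid dehydrogenase-like protein of peroxisomes and mitochondria, lay at 393 to 415 CPM in untreated and 421 to 462 CPM in drug-fed CD mice. On HFHS it lay at 491 to 522 CPM and 539 to 574 CPM, so that neither diet's groups overlapped although the difference was only 0.13 ± 0.03. Ehhadh, the bifunctional enzyme of peroxisomal fatty acid oxidation, was 0.27 ± 0.07 higher. Acat1, the mitochondrial acetoacetyl-CoA thiolase, was 0.13 ± 0.03 higher, and Gpam, which starts glycerolipid synthesis at the mitochondrial surface, 0.19 ± 0.05 higher. Adhfe1, a mitochondrial hydroxyacid transhydrogenase, was 0.18 ± 0.05 higher.

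The remaining named genes with higher values were Camk2n2, an inhibitor of the calcium/calmodulin kinase CaMKII (0.69 ± 0.16, at a mean of only 1.23 CPM), Aqp4, a water channel (0.62 ± 0.15), and Cep128, a centriole protein (0.30 ± 0.08). Those with lower values were led by Dapk2, a calmodulin-regulated death-associated kinase. Dapk2 measured 6.53, 7.80, 6.35 and 7.37 CPM untreated and 4.75, 5.69, 6.06 and 5.41 CPM with drug on CD. The HFHS values were 8.57, 8.86, 7.65 and 7.39 CPM untreated and 6.05, 5.68, 7.05 and 6.99 CPM with drug. Every drug library was below every untreated one of its diet, with a log2 difference of -0.35 ± 0.08.

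Ptges, which makes prostaglandin E, was -0.65 ± 0.16 at a mean of 1.75 CPM, Rarg, a retinoic acid receptor, -0.27 ± 0.07, and Cd3eap, an RNA polymerase I subunit, -0.18 ± 0.05. Itga5, the fibronectin receptor alpha chain, was -0.22 ± 0.06. Sema4c (-0.21 ± 0.05), Abcc4 (-0.19 ± 0.05), Sipa1 (-0.18 ± 0.04) and Flywch1 (-0.14 ± 0.04) completed the set together with Oas2, which is described with the interferon genes. The plot of individual genes by library shows 6 of these patterns.

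**Figure D2:**
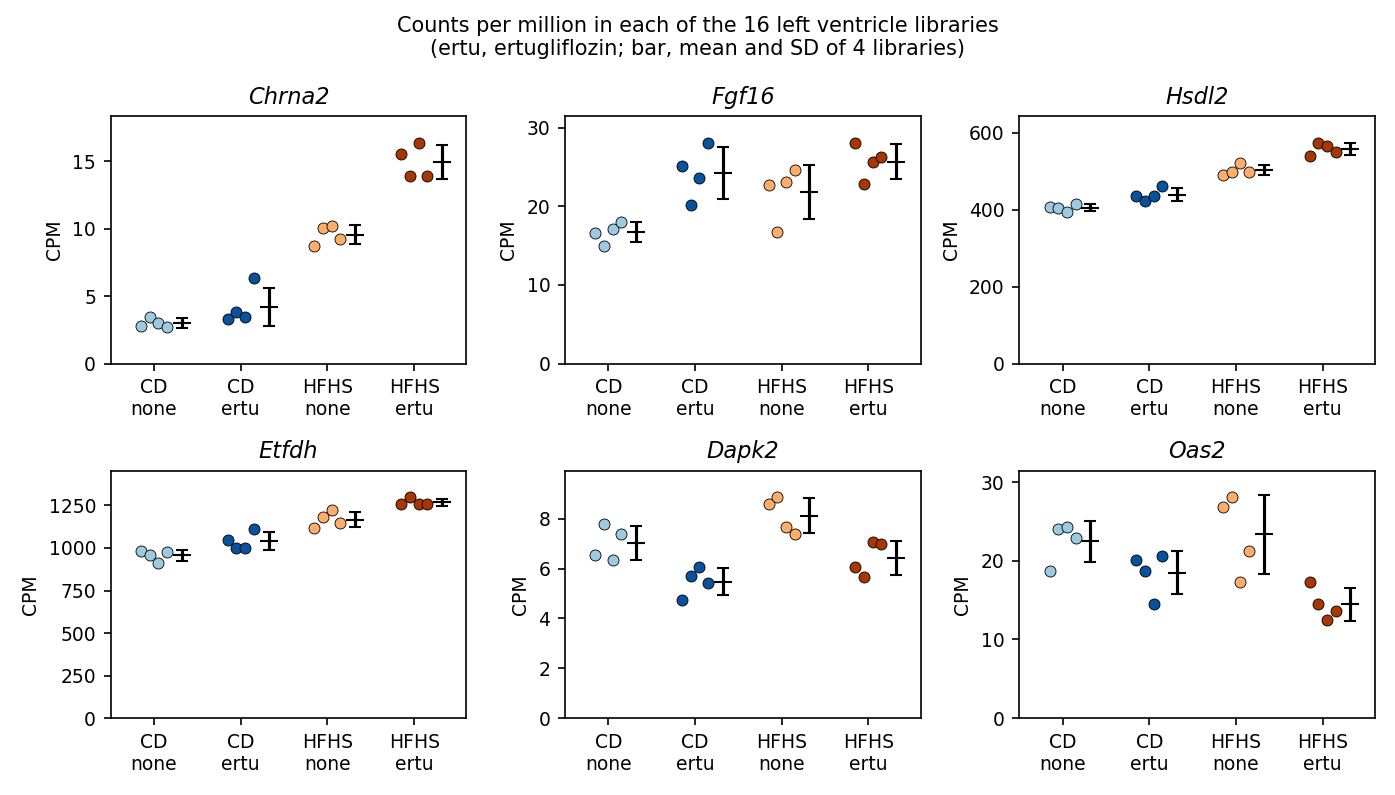
Level in CPM (vertical axes, from 0) of Chrna2, Fgf16, Hsdl2, Etfdh, Dapk2 and Oas2 in each of 16 libraries by group (horizontal axes; none, untreated; ertu, ertugliflozin), with the mean and SD of 4 libraries beside the points. Hsdl2, Etfdh and Dapk2 do not overlap within either diet, while Chrna2 overlaps on CD, Fgf16 on HFHS and Oas2 on both.

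Genes of mitochondrial fatty acid oxidation were slightly higher with ertugliflozin. Of 20 tested, 20 had a positive log2 difference, 18 had one on both diets (49.9% and 27.7% of all genes), and 13 had an unadjusted p under 0.05 against 3.11% of all genes in that direction, with 0 called after adjustment. The median was 0.107, against -0.0002 over all genes tested. It was 0.0727 on CD and 0.147 on HFHS, and 0.0851 to 0.119 with each library left out in turn. Members of a list were measured in the same 16 libraries, so these counts are not independent observations. In bulk tissue more RNA per cardiomyocyte cannot be told apart from a larger share of cardiomyocytes, which bears on this and every list below.

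Etfdh, which passes electrons from fatty acid oxidation to ubiquinone, measured 982, 960, 912 and 975 CPM untreated and 1047, 997, 1001 and 1111 CPM with drug on CD. Its HFHS values were 1117, 1180, 1224 and 1148 CPM untreated and 1259, 1297, 1260 and 1257 CPM with drug. The groups were separate on both diets and the log2 difference was 0.12 ± 0.03 (edgeR, adjusted p 0.863). Acadm, the medium-chain acyl-CoA dehydrogenase, was 0.13 ± 0.04 higher, Ech1 and Decr1, which process unsaturated fatty acids, 0.15 ± 0.04 and 0.16 ± 0.05, and Cpt1a, which brings fatty acids into mitochondria, 0.17. Etfb had the smallest difference, 0.03. As mean log2 level of the list per library, HFHS mice with drug spanned 0.156 to 0.212 above the overall mean and untreated HFHS mice -0.00206 to 0.137, without overlap. On CD the drug group (-0.167 to 0.0253) and the untreated group (-0.244 to -0.0911) overlapped.

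The respiratory chain and the pathways that feed it had smaller differences of the same sign. All 36 tested subunits and assembly factors of complex I were positive, 35 of them on both diets, with a median of 0.0745, and 11 had an unadjusted p under 0.05 in the higher direction, against 49.9% of all genes positive and 3.11% with such a p. Ndufa9 had the largest value, 0.11 ± 0.04. For complex III, complex IV and ATP synthase 33 of 35 genes were positive with a median of 0.0674, and for the TCA cycle 17 of 18 with a median of 0.0639, led by Suclg1, a succinyl-CoA ligase subunit (0.10 ± 0.04). Without CD untreated replicates 2 and 3, the libraries highest in valve markers, the complex I median was 0.0491 and that of complex III, complex IV and ATP synthase 0.0444.

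Breakdown of branched-chain amino acids, another mitochondrial fuel route, had 22 of 22 genes positive, a median of 0.0842 and 11 genes higher at an unadjusted p under 0.05 (3.11% of all genes). Without CD untreated replicates 2 and 3 that median was 0.05. Bckdhb, a subunit of the branched-chain ketoacid dehydrogenase, was 0.15 ± 0.05 higher, and Ppm1k, the phosphatase that activates that enzyme, 0.20 ± 0.07. Mitochondrial ribosomal proteins had 38 of 45 positive at a median of 0.0346, and 0.0187 without those 2 libraries. Sarcomere and Z-disc genes, a cardiomyocyte list with no metabolic role, had 10 of 23 positive and a median of -0.0136, whose sign turned without HFHS ertugliflozin replicate 1 (0.00499). None of the genes in these 6 lists passed the adjusted threshold.

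Target genes of PPAR-alpha had wider differences. All 19 tested of 24 listed were positive, 14 of them on both diets, and 10 had an unadjusted p under 0.05. Among all genes 49.9% were positive, 27.7% on both diets, and 3.11% were higher with such a p. The median was 0.130 (0.111 on CD, 0.154 on HFHS), and 0.0843 on the log2 values that the authors deposited. The 5 others were too low to test, among them Fgf21, a fasting hormone with 0 to 7 counts per library. Pdk4, the kinase that holds back pyruvate oxidation, measured 426, 553, 470 and 647 CPM in untreated and 923, 1544, 945 and 743 CPM in drug-fed CD mice. In HFHS mice it measured 1000.1, 1864, 1141 and 1632 CPM untreated and 1713, 2039, 1671 and 1758 CPM with drug. The groups were separate on CD and overlapped on HFHS through replicate 2 of the untreated mice. Its log2 difference was 0.67 ± 0.17 over both diets (edgeR, adjusted p 0.863), 0.99 ± 0.24 on CD and 0.35 ± 0.24 on HFHS, and the 95% interval ran from 0.30 to 1.03.

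Angptl4, a secreted inhibitor of lipoprotein lipase, measured 6.98, 6.00, 5.93 and 14.7 CPM untreated and 22.3, 24.3, 30.9 and 3.89 CPM with drug on CD. On HFHS, untreated mice had 21, 36.5, 53.0 and 31.4 CPM and drug-fed mice 33.7, 48.0, 38.7 and 38.1 CPM. Replicate 4 of the CD drug group was the lowest of all 16 and the other 3 of that group lay above every untreated CD mouse, so the difference of 0.72 ± 0.34 had an interval from -0.03 to 1.46. Ucp3, the mitochondrial uncoupling protein of muscle, was 0.66 ± 0.30 with CD drug values of 42.3 to 163 CPM. Plin2, a coat protein of lipid droplets, measured 75.3 to 80.6 CPM untreated and 87.9 to 93.1 CPM with drug on CD, and its groups overlapped on HFHS (0.13 ± 0.04 over both).

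Ketone body genes had no common sign. Of 12 tested 7 were positive, with a median of 0.00909 whose sign depended on the library left out. In the higher direction 2 had an unadjusted p under 0.05 by edgeR, against 3.11% of all genes, and 0 were called after adjustment. Acat1, the acetoacetyl-CoA thiolase named above, was 0.13 ± 0.03 higher over both diets. Of the enzymes that use ketone bodies, Oxct1 lay at 1753 to 1979 CPM untreated and 1852 to 1977 CPM with drug on CD, and its interval over both diets ran only from -0.09 to 0.06. Bdh1 was -0.16 ± 0.20, and 0.04 without HFHS untreated replicate 2, whose 216 CPM compared with 73.5 to 111 CPM in the other 3.

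The drug's target was too low to test, and none of the related transporters passed the adjusted threshold. Slc5a2 had 0 to 3 counts per library, was above 0 in 7 of 16 libraries and summed to 3 counts in untreated and 8 in drug-fed mice, too few to test. Slc5a1, encoding SGLT1, had 5 to 31 counts per library and a log2 difference of -0.23 ± 0.25, from -0.71 ± 0.33 on CD and 0.25 ± 0.38 on HFHS. The difference over both diets was -0.09 without HFHS ertugliflozin replicate 1 and -0.38 without HFHS ertugliflozin replicate 2. Slc2a1 and Slc2a4, the glucose carriers GLUT1 and GLUT4, were -0.20 ± 0.10 and -0.01 ± 0.05. The interval ran from -0.41 to 0.005 for Slc2a1 and from -0.12 to 0.09 for Slc2a4. Without CD untreated replicate 4, Slc2a1 was -0.13. The list of glucose uptake, glycolysis and glycogen genes had 19 of 29 positive and a median of 0.0252, which was -0.00466 without HFHS untreated replicate 1 and -0.00900 without CD untreated replicates 2 and 3.

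**Figure D3:**
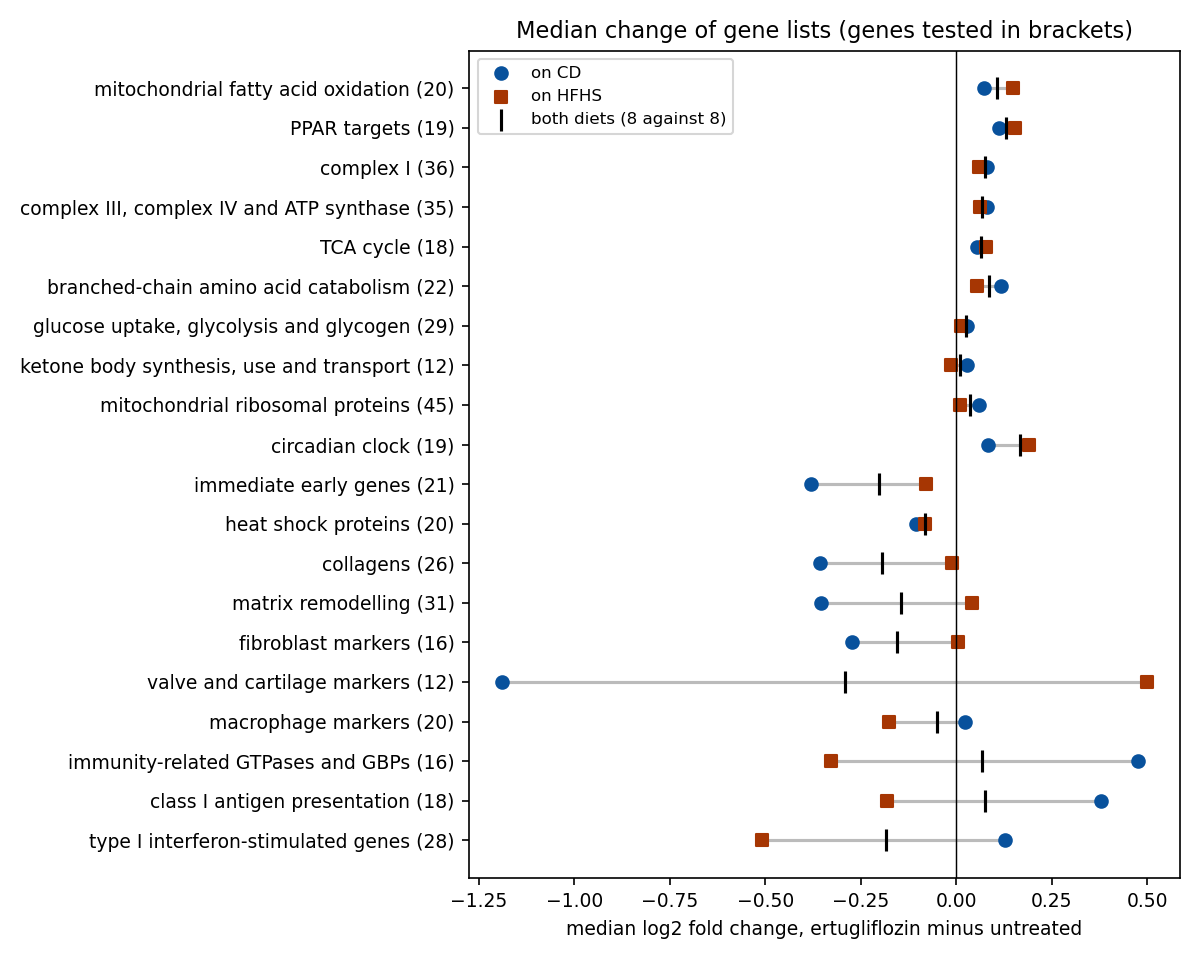
Median log2 fold change with ertugliflozin (horizontal axis) of the tested members of 20 gene lists on CD (circles), on HFHS (squares) and over both diets (bars), with the number of genes in brackets. The oxidative lists lie close to the right of 0 on both diets (fatty acid oxidation 0.0727 and 0.147), matrix and valve lists are negative on CD, and the interferon lists have opposite signs on the diets.

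Immediate early genes and heat shock proteins were mostly lower with drug. Of 21 tested immediate early genes, transcription factors induced within minutes by stimuli, 2 were positive and 4 had an unadjusted p under 0.05 in the lower direction, against 2.46% of all genes, with a median of -0.203. Egr2 measured 0.842 to 2.55 CPM untreated and 0.253 to 1.27 CPM with drug, a log2 difference of -0.99 ± 0.28. Atf3 on CD measured 19.0, 16.1, 17.4 and 3.91 CPM untreated and 5.16, 5.91, 4.77 and 7.48 CPM with drug. Untreated replicate 4 of CD was thus the lowest of its diet while the other 3 were the highest of all 16 libraries. The list's median was -0.134 without CD untreated replicate 1 and -0.312 without HFHS ertugliflozin replicate 1.

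Of 20 heat shock genes 1 was positive, against 49.9% of all genes, with a median of -0.0833. In the lower direction 4 had an unadjusted p under 0.05, against 2.46% of all genes. Hsp90ab1, a cytosolic chaperone, measured 1783, 1836, 1992 and 1675 CPM untreated and 1618, 1661, 1612 and 1697 CPM with drug on CD. HFHS mice had 1676 to 1754 CPM untreated and 1565 to 1639 CPM with drug. The groups were separate on HFHS, and overlapped on CD through untreated replicate 4, for a difference of -0.12 ± 0.03. The inducible Hspa1a was -0.78 ± 0.37, most of it on CD (-1.55, against -0.02 on HFHS). Circadian clock genes had a median of 0.167, which was 0.0203 without CD ertugliflozin replicate 2 and 0.27 without CD ertugliflozin replicate 1. They had 0 of 19 genes at an unadjusted p under 0.05.

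Genes of the extracellular matrix had negative medians on CD and medians near 0 on HFHS, as had the markers of fibroblasts. The fibroblast markers include the collagen genes Col1a1, Col1a2 and Col3a1, so they are not independent of the matrix genes. Of 26 collagen genes 26 were negative over both diets, with a median of -0.195 made of -0.356 on CD and -0.0117 on HFHS, and 6 had an unadjusted interaction p under 0.05. Matrix remodelling genes had medians of -0.355 and 0.0399. Fibroblast markers had -0.273 and 0.00416, and valve and cartilage markers -1.19 and 0.500. Of the 12 tested valve markers 10 had an unadjusted interaction p under 0.05, against 4.27% of all genes. With CD untreated replicates 2 and 3 left out, the medians over both diets were -0.0247 for collagens, 0.0150 for matrix remodelling, -0.00875 for fibroblast markers and 0.0265 for valve markers.

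Col1a1, the main fibrillar collagen chain of scar, measured 136, 209, 209 and 119 CPM untreated and 101, 121, 145 and 88.6 CPM with drug on CD. Its HFHS values were 119, 188, 135 and 171 CPM untreated and 158, 163, 169 and 143 CPM with drug. Replicates 2 and 3 of the untreated CD mice were the highest of the 16, the groups overlapped on both diets, and the difference was -0.26 ± 0.15. Thbs1, a matrix glycoprotein, had 92.4 and 87.8 CPM in the same 2 libraries and 7.89 to 45.1 CPM in all others (-0.78 ± 0.39). Whether the share of valve tissue accounts for the matrix values was not tested. Nppb, a natriuretic peptide gene of stretched myocardium, was -0.50 ± 0.35, and -0.24 without CD untreated replicates 2 and 3. Nppa, made mostly in atria, was -0.54 ± 0.31 with 358 CPM in CD untreated replicate 1, and -0.26 without that library. CD untreated replicate 1 also had the highest Myl7, an atrial myosin light chain, at 234 CPM against 0 to 23.5 CPM in the other 15.

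**Figure D4:**
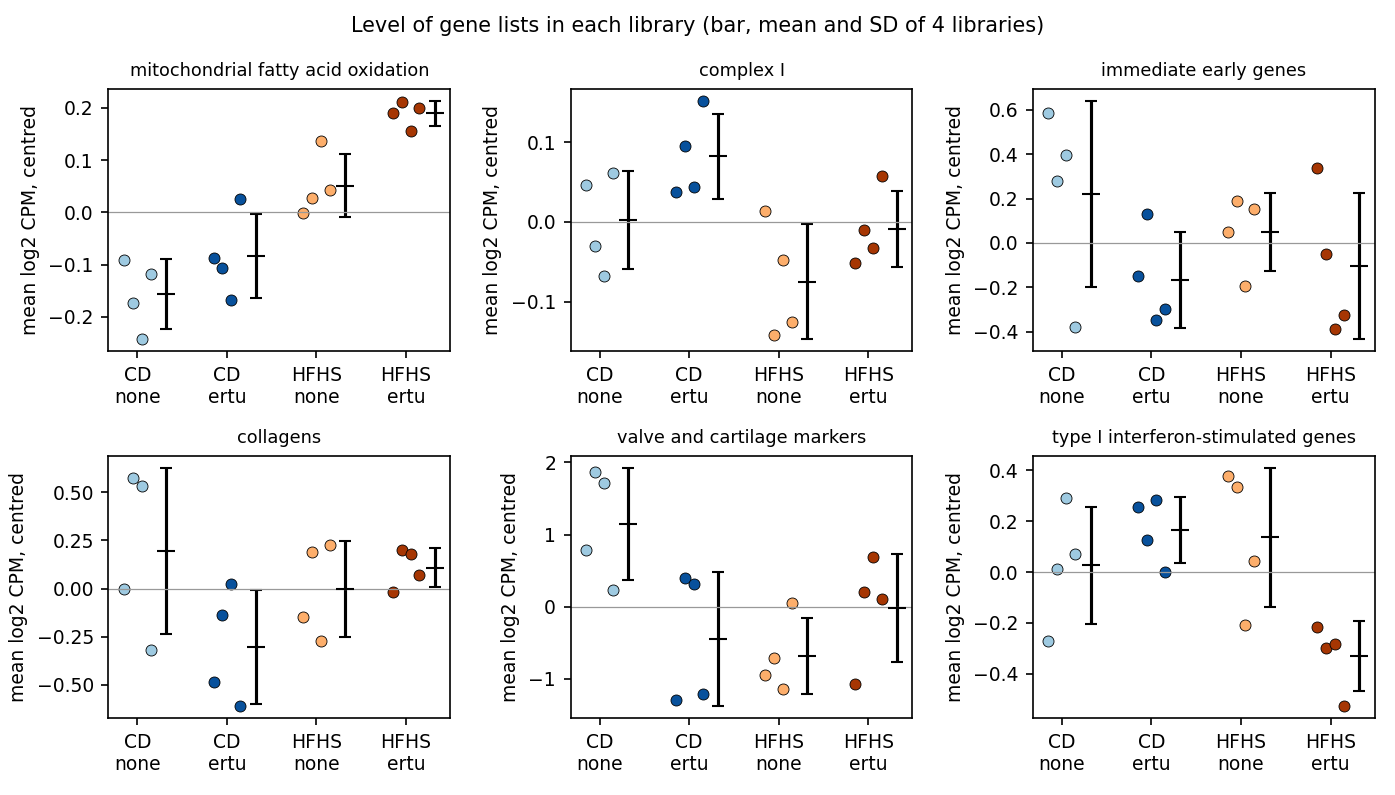
Mean log2 CPM of the tested members of 6 gene lists in each library, centred on the mean of 16 libraries (vertical axes), by group (horizontal axes; none, untreated; ertu, ertugliflozin), with the mean and SD of 4 libraries. Fatty acid oxidation genes do not overlap between drug and no drug on HFHS and overlap on CD, CD untreated replicates 2 and 3 have the highest levels of both collagens and valve markers, and type I interferon-stimulated genes are lowest in HFHS mice with drug (-0.528 to -0.215).

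For a few interferon-responsive genes the drug effect differed between the diets. The test of that difference by edgeR called 3 genes, 0.0189% of 15841, with 676 genes (4.27%) at an unadjusted p under 0.05. The 3 were Iigp1, Igtp and Tgtp2, all immunity-related GTPases. Interferon-gamma induces this family, and some of its members attack vacuoles holding intracellular parasites. They are named because so few were called. Each was higher with drug on CD and lower on HFHS, so the averages over both diets were small: 0.22 ± 0.09, 0.19 ± 0.09 and 0.28 ± 0.11.

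Iigp1 measured 53.4, 45.6, 53.7 and 45.6 CPM untreated and 89.8, 109, 90.2 and 73.2 CPM with drug on CD. On HFHS it measured 51.4, 40.8, 36.6 and 47.1 CPM untreated and 35.9, 36.1, 30.1 and 29.2 CPM with drug. The groups were separate on both diets, in opposite directions. The drug effect was 1.29 lower on HFHS than on CD on the log2 scale (adjusted p 0.0219 by edgeR).

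Igtp (chr11:58199556-58207591, GRCm38, plus strand) measured 20.4, 16.5, 21.4 and 18.6 CPM untreated and 27.1, 34.3, 38.5 and 30 CPM with drug on CD. Its HFHS values were 16.4, 20.4, 14.0 and 18.2 CPM untreated and 14.5, 12.3, 14.5 and 12.2 CPM with drug. Tgtp2 (chr11:49057194-49064206, minus strand) measured 6.66, 8.40, 8.95 and 6.70 CPM untreated and 15.2, 18.2, 13.1 and 13.8 CPM with drug on CD, and 4.91 to 8.24 CPM and 4.28 to 5.63 CPM on HFHS. For both genes the groups were separate on CD and overlapped on HFHS. Tgtp2 has a near-identical copy, Tgtp1, and Igtp overlaps Irgm2 on the same strand, so reads of these genes may be split or lost in counting.

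**Figure D5:**
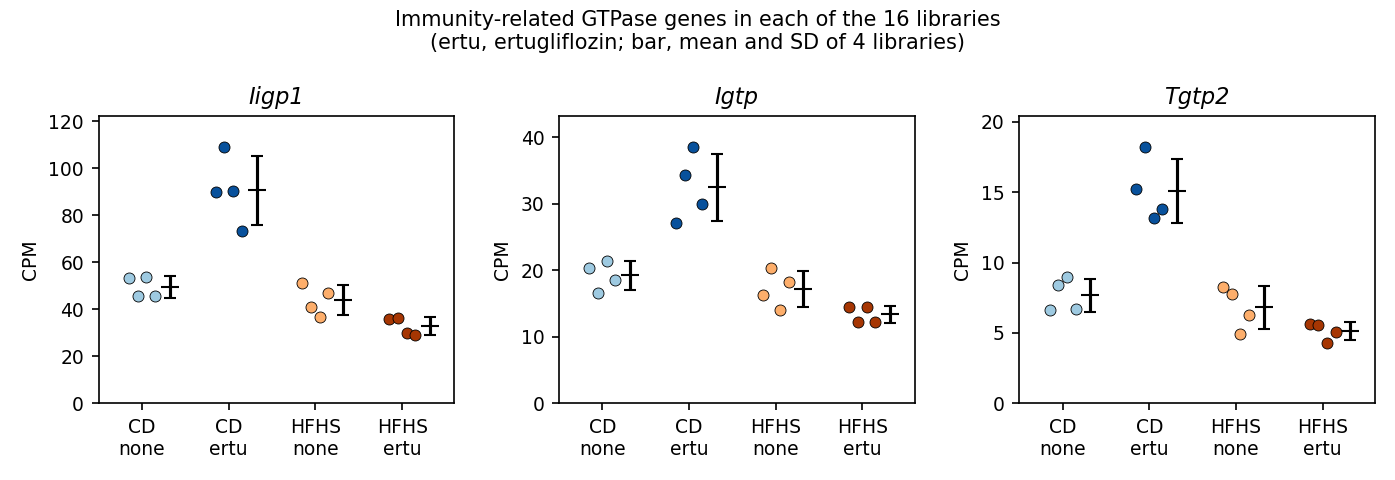
Level in CPM (vertical axes, from 0) of Iigp1, Igtp and Tgtp2 in each of 16 libraries by group (horizontal axes; none, untreated; ertu, ertugliflozin), with the mean and SD of 4 libraries. The 4 CD ertugliflozin libraries lie above all 12 others for each gene, with Iigp1 at 73.2 to 109 in them.

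The 250 bases before the start of Igtp (chr11:58199306-58199555, plus strand) and of Tgtp2 (chr11:49064213-49064462, minus strand), from RefSeq on GRCm38.p6, are shown because both hold the same pair of interferon motifs close together. Capitals mark, in order, a match to TTCNNNGAA, the gamma-activated site type (GAS), and a match to GAAANNGAAA, the type bound by interferon regulatory factors (ISRE).
Igtp: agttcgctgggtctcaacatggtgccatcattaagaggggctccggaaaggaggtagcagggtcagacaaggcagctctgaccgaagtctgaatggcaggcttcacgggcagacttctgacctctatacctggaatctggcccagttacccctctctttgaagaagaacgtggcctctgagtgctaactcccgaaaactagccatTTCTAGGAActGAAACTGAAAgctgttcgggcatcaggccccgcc
Tgtp2: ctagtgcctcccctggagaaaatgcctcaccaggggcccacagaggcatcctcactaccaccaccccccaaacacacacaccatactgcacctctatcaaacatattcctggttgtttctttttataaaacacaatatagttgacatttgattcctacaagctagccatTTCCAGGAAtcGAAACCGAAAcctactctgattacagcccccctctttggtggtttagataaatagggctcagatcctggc
The first bases of the matches lie 45 and 34 bases before the start in Igtp and 81 and 70 bases before it in Tgtp2. Searched on both strands, TTCNNNGAA was found in 7.02% and GAAANNGAAA in 2.98% of 32851 windows of this length. Of the 10 immunity-related GTPase and guanylate-binding protein (GBP) genes with a window, 6 held the former and 9 the latter. Of 16 class I antigen presentation genes 1 and 3 held them, of 18 type I interferon-stimulated genes 3 and 9, and of 17 fatty acid oxidation genes 3 and 0. A gene was counted where any of its windows held a match, so these counts and the shares of single windows are unlike measures. Igtp and Tgtp2 were picked for holding the pair, and no window of Iigp1, the other called gene, is shown. A match is a description of letters, not evidence of a bound site.

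The number of calls changed when single libraries were left out. Leaving out any 1 of CD untreated replicates 1, 2 or 4, HFHS untreated replicates 1, 2 or 4, or HFHS ertugliflozin replicates 2, 3 or 4 gave 0 calls. The smallest adjusted p by edgeR in those fits was 0.0549 to 0.0904, just past the threshold. Leaving out HFHS untreated replicate 3 gave 18, CD ertugliflozin replicate 4 gave 7, and DESeq2 on all libraries gave 19. With the valve and atrial scores as covariates there were 0 calls, and also without CD untreated replicates 2 and 3. The smallest adjusted p by edgeR was 0.0807 and 0.061 in these fits. With the covariates 869 genes had an unadjusted interaction p under 0.05.

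The wider lists had the same opposite signs. Of 16 tested GTPase and GBP genes, 15 were positive on CD and negative on HFHS, with medians of 0.474 and -0.328, and 13 had an unadjusted interaction p under 0.05. Among all genes 24% had that pattern of signs and 4.27% such a p. For genes of class I antigen presentation, which load and display peptides to T cells, 16 of 18 had that pattern and 15 had such a p. Nlrc5, the transactivator of class I genes, was 0.82 on CD and -0.28 on HFHS. Over both diets the medians were 0.0662 and 0.0745. Without CD ertugliflozin replicate 3 the latter was 0.0142, and without HFHS untreated replicate 3 the former was 0.0184, and leaving out other single libraries also moved both by over 1.5 times (up to 0.120 and 0.133, without HFHS untreated replicate 1).

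Type I interferon-stimulated genes, the antiviral set, were mostly lower with drug in the average over both diets, but on CD most were higher. Of 28 tested 1 was positive, 9 had an unadjusted p under 0.05 in the lower direction (2.46% of all genes), and the median was -0.184, from 0.126 on CD and -0.509 on HFHS. Without CD untreated replicate 3 the median over both diets was -0.122. In 22 of the 28 the sign was positive on CD and negative on HFHS, and 21 had an unadjusted interaction p under 0.05. Among all genes 24.0% had that pattern of signs and 4.27% such a p. Oas2, a sensor of double-stranded RNA, was lower on both diets, with 18.6, 24.0, 24.4 and 22.9 CPM untreated and 20.1, 18.7, 14.5 and 20.6 CPM with drug on CD. On HFHS it measured 26.8, 28.1, 17.3 and 21.3 CPM untreated and 17.4, 14.4, 12.5 and 13.6 CPM with drug. The groups overlapped on each diet, only just on HFHS, for a difference of -0.49 ± 0.11 (adjusted p 0.848 by edgeR and 0.0224 by DESeq2).

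Ifi44, another antiviral gene, was -0.004 ± 0.178 on CD and -0.82 ± 0.18 on HFHS, where its groups did not overlap. The macrophage markers had medians of the same signs, 0.0221 on CD and -0.176 on HFHS, and their summed level was 676 to 900 CPM and 712 to 1050 CPM on CD, untreated and with drug, and 674 to 773 CPM and 597 to 718 CPM on HFHS. Their part in the interferon values was not tested. Nlrp3, the inflammasome sensor of myeloid cells, was -0.32 ± 0.21 at a mean of 0.94 CPM, from 0.18 ± 0.28 on CD and -0.83 ± 0.31 on HFHS, where its groups did not overlap.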

How the data were processed

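Poly(A)-selected, strand-marked libraries of left ventricular RNA were sequenced, per the labels' protocols. The authors deposited raw read counts of 53764 Ensembl genes and a table of regularized log2 values, used here only as an alternative input. The submitters' processing notes name STAR 2.6.0c, featureCounts of Subread 1.6.2, FastQC 0.11.7, DESeq2 1.22.1 and mm10; annotation and strand setting: not given in the sources used here. Symbols (53583 IDs) and positions came from GENCODE M21 on GRCm38, and 181 IDs had none.

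The counts were fitted with edgeR 4.0.16 under R 4.3.3, after filterByExpr by group, with TMM factors, a mean for each group, robust quasi-likelihood dispersions, Benjamini-Hochberg adjustment over 15841 genes and a threshold of 0.05. Standard errors come from the fit's information matrix and quasi-dispersion. CPM values use TMM-scaled totals. The code was tested on simulated data. DESeq2 1.42.0 and limma 3.58.1 were alternatives, with other scalings and filters, a replicate block, covariates and left-out libraries.

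Lists were described by counts and medians, without set tests. Their members and the comparison were chosen with earlier results of these data known. Genes named by rule had a symbol other than a gene-model name and at least 1 CPM: the 20 of smallest p, since none was called, and 14 preset genes, of which 2 are not reported here. Other genes named in the text were chosen after their values were seen. Totals of 14637669 to 21452212 counts set the precision. No 2 libraries of a group were close enough to be copies of 1 library (chi-square over degrees of freedom at least 3.23).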

Additional observations from a re-analysis of the deposited data

Results flagged for a closer look

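Of 216 sets of 4 libraries (54 genes in 4 groups), 19 had 1 library set far from the other 3, where chance gives about 5%, or 11. Among genes named by rule, high values in 1 library were 6.32 CPM for Chrna2 in CD ertugliflozin replicate 4, 31.2 CPM for Ehhadh in CD ertugliflozin replicate 2 and 14.7 CPM for Angptl4 in CD untreated replicate 4. Low values were 73.8 CPM for Adhfe1 in HFHS untreated replicate 2 and 21.2 CPM for Sema4c in HFHS ertugliflozin replicate 3.

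The transporters gave 6 such values. Slc2a1 was high in CD untreated replicate 4 (23.4 CPM) and HFHS ertugliflozin replicate 3 (13.6 CPM). Slc2a4 was high in CD ertugliflozin replicate 4 (519 CPM) and low in HFHS ertugliflozin replicate 3 (344 CPM). Slc5a1 was low in CD untreated replicate 2 (0.981 CPM) and HFHS untreated replicate 4 (0.303 CPM).

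The atrial genes Myl7 and Sln were high in CD untreated replicate 1 (234 and 65.6 CPM) and, within a much lower group, in HFHS untreated replicate 4 (9.87 and 2.6 CPM). Etfdh was high in HFHS ertugliflozin replicate 2 (1300 CPM, rounded), Ucp3 in HFHS ertugliflozin replicate 3 (159 CPM) and Prdm9 in HFHS ertugliflozin replicate 4 (4.05 CPM). Tiprl was low in CD ertugliflozin replicate 2 (44.9 CPM).

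Effects of the drug that differed between the diets were those of Iigp1, Igtp and Tgtp2, by edgeR's interaction test. The effect on HFHS minus that on CD was -1.29, -1.13 and -1.38 on the log2 scale.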

How the results depend on the processing

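With no gene called by edgeR for the drug over both diets, DESeq2 called 4 and every other alternative with all libraries 0, except the replicate block. Leaving out each library in turn gave 0 to 1. For the difference between the diets, edgeR called 3 genes, 6 without a low-count filter, 19 with DESeq2, 0 with valve and atrial scores as covariates, 0 without CD untreated replicates 2 and 3, and 0 to 18 with each library left out. Without that filter 1297 genes had an unadjusted drug p under 0.05, and limma on the deposited log2 values gave 864. The cause of these shifts was not tested.

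For 36 genes under 27 alternatives, 961 of 970 values had the same direction and the same side of the threshold. Of the others 5 passed it (DESeq2 for Chrna2, Fgf16, Oas2 and Hsdl2, the block for Fgf16) and 4 changed sign: Slc2a4 was 0.016 without CD untreated replicate 4 and 0.00156 without CD ertugliflozin replicate 2 (lowest -0.049), Bdh1 0.043 without HFHS untreated replicate 2 (lowest -0.25) and Oxct1 0.00142 without CD untreated replicate 4 (lowest -0.031). List medians on the deposited log2 values were -0.0658 for type I interferon genes, and the T and NK cell list had no median at 1 CPM.

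With the replicate number as a block, edgeR called 1 gene for the drug (Fgf16, adjusted p 0.00859) and 2 for the difference between the diets. Deviations of 24 same-numbered pairs correlated at -0.29 to 0.401, 7 of them over 0.1, and 6 of 16 libraries correlated best with their own number, so the numbers were not taken to pair the mice. At this depth 17 genes had an estimated drug difference over 2-fold, and edgeR called none of them.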

Other observations

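Of 20 endothelial markers 17 were positive on CD and 3 on HFHS, against 51.7% and 50.2% of all genes. Their medians were 0.0640 and -0.0760, and 2 had an unadjusted interaction p under 0.05, where 4.27% of all genes had one. Class II antigen presentation genes are used by dendritic cells and macrophages to show peptides to helper T cells. Of 9 tested 9 were positive on CD and negative on HFHS, against 24.0% of all genes. Their medians were 0.388 and -0.219, and only 1 had an unadjusted interaction p under 0.05, against 4.27% of all genes. Erythroid genes had medians of 0.0550 and -0.410.

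Genes of the fetal programme and hypertrophy had 5 of 22 positive over both diets and a median of -0.137, with 3 at an unadjusted p under 0.05 in the lower direction (2.46% of all genes). That median was -0.0803 without HFHS untreated replicate 2, -0.216 without CD ertugliflozin replicate 3 and -0.067 without CD untreated replicates 2 and 3. Mean atrial marker scores were 0.962 in untreated CD mice and -0.414 to -0.177 in the other groups; their part in these values was not tested. Myh7, the slow myosin heavy chain of fetal and stressed mouse ventricle, was -0.80 ± 0.34 (-1.25 on CD and -0.35 on HFHS). Xirp2, a protein of cardiac cell junctions, was -0.16 ± 0.06. Among regulators of pyruvate oxidation, Pdk3 was -0.44 ± 0.15, opposite in sign to Pdk4. Cholesterol synthesis genes had 13 of 20 positive (median 0.0663, and 0.031 without CD untreated replicates 2 and 3), triglyceride and fatty acid synthesis genes 12 of 24, and insulin signalling and FoxO targets 14 of 26. None of these genes passed the adjusted threshold of edgeR.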
